A study of Oryza sativa with 3 samples.

Results

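The genes described here make the plant hormone ethylene, perceive it or pass its signal on, and they were read in the shoot tip of rice seedlings. They were chosen by name: a gene was kept if its symbol or synonym, with any Os prefix removed, was ACO1, ACO3, ACS1, ACS2, ERS1, ERS2, ETR2, ETR3 or EIN2, and if the platform annotation paired a probe set with that gene alone. Of these 9 names, 8 matched 1 gene each, covered by 9 probe sets, out of 17905 genes named on the array. ACO3 matched no symbol or synonym in the tables used and was not analysed here.

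RNA was measured on Affymetrix expression arrays, a format in which a gene is read by 1 or more sets of short probes. The samples were 3 shoot-tip samples of Hitomebore, a temperate japonica cultivar, labelled biological replicates of a single group called CK shoot, an abbreviation that the labels do not spell out. Seeds germinated for 2 days in darkness at 28 °C. The seedlings then grew for around 48 h under greenhouse light, given 16 h a day, at 26 °C. No mutation, transgene, added ethylene or other treatment is named for this group, the labels speak of a second genotype that was not analysed here, and how many plants made up a sample is not given. The tissue label reads shoot tip, whereas the extraction protocol speaks of seedlings. With 1 group there is no contrast, so what can be asked is which of these genes gave signal above background, and how far the samples agreed on each.

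Ethylene is made from S-adenosylmethionine by ACC synthases, which form its precursor ACC, and by ACC oxidases, which turn ACC into ethylene. Receptors of the ERS and ETR families sit in the endoplasmic reticulum membrane and repress the response until ethylene binds them. The membrane protein EIN2 then relays the signal towards transcription factors of the EIN3/EIL family. In rice seedlings ethylene is known for promoting coleoptile growth and inhibiting root growth.

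All values are log2 signals as deposited, after robust multi-array averaging (RMA), which equalizes brightness between arrays before probes are summarized. Probes differ in how well they bind their target, so no gene's signal is ranked against another's. Each gene is instead set against a ceiling of background, the highest of 17 Tag control probe sets on the same array, which read 4.98, 4.88 and 4.97 on replicates 1, 2 and 3. The arrays correlated at Pearson's r of 0.993 to 0.996 across probe sets, a description in which probe sets do not count as replicates. On replicate 3 the 4 control probe sets for ribosomal RNA averaged 9.59, against 12.05 and 11.73 on replicates 1 and 2. The 3′ minus 5′ signal of the actin and GAPDH controls was alike on the arrays, at 2.41, 2.32 and 2.40 for actin and 1.98, 1.93 and 1.98 for GAPDH.

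The labelled tissue was checked against markers. Greening genes were bright: 3 of the 4 usable leaf markers exceeded the ceiling in every sample, among them CAB2R, a light-harvesting protein, at 13.66, 13.99 and 13.80. The 2 usable shoot meristem markers were the homeobox genes OSH71 and OSH1. OSH71 lay above the ceiling on all arrays, but on replicate 2 it read 4.93, close to the ceiling of 4.88, against 6.67 and 6.24. OSH1 lay above the ceiling on replicates 1 and 3 but not on replicate 2, where it read 3.73 against 6.25 and 6.47. The grain markers RAG2 and GLUA1 were clearly higher on replicate 2. RAG2, a seed allergen protein, read 9.22 there against 4.40 and 3.94, and GLUA1 read 6.61 against 3.68 and 3.61. Of the 4 usable grain markers 1, the glutelin gene GLUA2, exceeded the ceiling in every sample, at 6.75, 7.21 and 7.07. The summed signal of these 4 was 9.74 on replicate 2 on the log2 scale, against 7.29 and 7.47. The alpha-amylase gene AMY3D lay below the ceiling on every array and did not rise on replicate 2, at 3.89, 3.76 and 3.98. None of the 6 root markers could be used, so root RNA was not tested. In these bulk samples, fewer cells of a type and less RNA per cell cannot be told apart.

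Among the chosen genes, 4 receptor genes, EIN2 and the ACC oxidase gene ACO1 gave clear signal in every sample. The ACC synthase genes ACS1 and ACS2 were at or under background, and so was the receptor gene ETR4, outside the chosen names and described below. Of the 8 genes, 6 exceeded the ceiling on each of the 3 arrays: ACO1, ERS1, ERS2, ETR2, ETR3 and EIN2. The same was true of 81.3% of all 17905 named genes and of 46.8% of all 57194 probe sets without controls, so a count of 6 of 8 is near the share of named genes. ACS1 crossed the ceiling on replicates 1 and 2 alone, and ACS2 lay below it on all arrays.

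**Figure D1:**
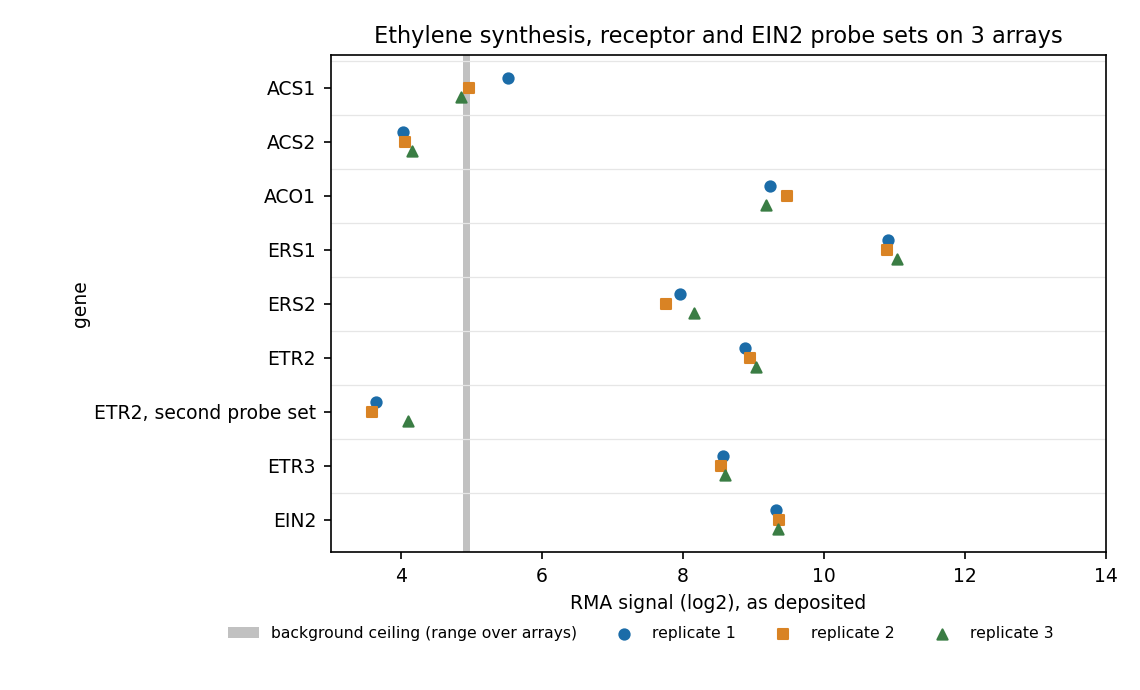
RMA signal on the log2 scale (x axis) of each of the 9 probe sets (y axis) on replicates 1, 2 and 3, shown as circles, squares and triangles. The grey band spans the background ceiling of the 3 arrays. ACO1, ERS1, ERS2, ETR2, ETR3 and EIN2 lie well to its right, ACS1 straddles it, and ACS2 and the second ETR2 probe set lie to its left.

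ACC synthases catalyse the committed and usually rate-limiting step of ethylene formation. ACS1 (LOC4333976) read 5.52 on replicate 1, 4.97 on replicate 2 and 4.85 on replicate 3, a mean of 5.11 ± 0.36 (SD, n = 3). Replicate 1 was thus 0.54 above its ceiling, replicate 2 stood 0.09 above, and replicate 3 was under it. The 95% interval of the ACS1 mean in limma's fit ran from 4.75 to 5.47 and so held the ceilings of all 3 arrays. The signal on replicate 1 was the same, to every deposited digit, as that of 43 other non-control probe sets on that array, so it was not a value of its own. The highest of the 64 reporter control probe sets (RPTR) reached 5.80, 5.90 and 5.56, above ACS1 on each array. ACS1 signal could therefore not be told from background on these arrays, and its values are given no order between samples.

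ACS2 (LOC4336750), the other ACC synthase, read 4.02, 4.06 and 4.15, or 4.08 ± 0.07 (SD, n = 3). Relative to the ceiling of each array it stood at -0.96, -0.82 and -0.82, so its values have no order between samples. Signal at background does not show that a transcript was absent, since a probe set may bind its target weakly.

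ACC oxidase carries out the last step. ACO1 (LOC4347225) read 9.23, 9.48 and 9.18, a mean of 9.30 ± 0.16 (SD, n = 3) with a 95% interval of 9.11 to 9.49. All 3 samples were 4.21 log2 or more above their ceilings. Replicate 2 was the highest, 0.28 above the mean of the other arrays, which differed from each other by 0.05. Named genes were cut into 10 bins of equal size by mean level. The ACO1 shift was greater than those of 96.4% of the genes in its bin, whose median shift on replicate 2 was -0.04. Replicate 2 is also the array on which the grain markers RAG2 and GLUA1 were high, and the part of these in the ACO1 value was not tested.

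Rice receptors fall into a subfamily with a conserved histidine kinase domain, to which ERS1 and ERS2 belong, and one whose kinase domain has diverged, to which ETR2, ETR3 and ETR4 belong. ERS1 (LOC4333832) read 10.91, 10.90 and 11.04, or 10.95 ± 0.08 (SD, n = 3), with a 95% interval of 10.82 to 11.07. It lay 5.93 to 6.07 above the ceiling, and replicates 1 and 2 differed by 0.01. ERS2 (LOC4337850) read 7.95, 7.76 and 8.16, or 7.96 ± 0.20 (SD, n = 3), with an interval of 7.72 to 8.20. Its lowest sample was replicate 2 and its highest replicate 3, a difference of 0.40 or 1.32-fold, the widest among the 6 genes above background. Replicate 2 was also low in the meristem markers, whose summed signal was 5.45 there against 7.47 and 7.36 on the log2 scale, and their part in the ERS2 value was not tested.

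ETR2 (LOC4335058), a receptor known in rice as a negative regulator of ethylene responses, was read by 2 probe sets that disagreed. The brighter one read 8.89, 8.94 and 9.04, or 8.96 ± 0.08 (SD, n = 3), with an interval of 8.80 to 9.11. The other read 3.64, 3.59 and 4.10, below the ceiling on all arrays, and 108 other probe sets held exactly its value on replicate 3. Averaging both, as some summaries do, would give 6.37 for the gene. ETR3 (LOC4331174) read 8.57, 8.53 and 8.60, or 8.57 ± 0.03 (SD, n = 3), with an interval of 8.41 to 8.72. All 4 receptors among the chosen genes were therefore detected in every sample through at least 1 probe set.

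EIN2 (LOC4342431), also called MHZ7, is the central transducer downstream of the receptors, and its loss makes rice seedlings insensitive to ethylene. It read 9.32, 9.37 and 9.34, or 9.34 ± 0.02 (SD, n = 3), with a 95% interval of 9.21 to 9.48. The 3 samples lay within 0.05 of each other, a 1.03-fold difference and the smallest among the 6 genes above background.

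The samples agreed on these genes about as well as on others. The SDs of the 6 genes above background ran from 0.02 for EIN2 to 0.20 for ERS2, with a median of 0.08, against a median of 0.12 for all 14556 genes above it, whose 5th and 95th percentiles were 0.03 and 0.32. None of the 6 had a range of 0.5 log2 or more across arrays, as did 10.1% of the genes above background, while the range of ACS1 was 0.67. Set among genes of the same bin of mean level, the SD was higher than that of 4.80% of them for EIN2, 5.53% for ETR3, 33.1% for ETR2 and 39.2% for ERS1. It was higher than that of 73.6% for ERS2 and 77.9% for ACO1. For the genes not above background on all arrays the shares were 29.2% for ACS2 and 92.3% for ACS1, whose values are near or under the ceiling.

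A formal test of each probe set's spread against the trend over all probe sets, limma's variance F test with Benjamini-Hochberg adjustment, called 0 of 57194 probe sets (0%), with 1395 at an unadjusted p under 0.05. Without the trend and robust settings limma called 0 as well, with 612 at an unadjusted p under 0.05. Both counts are below the share of 0.05 that would fall there if spread followed the fit, so the test was conservative on this table. None of the 9 probe sets was called by limma's fit, with adjusted p-values from 0.94 to 1.0, and the smallest unadjusted values in that fit were 0.056 for the second ETR2 probe set and 0.10 for ACS1. With 3 arrays, a p that misses the threshold does not show that a gene was steady. When only probe sets above the array median were fitted, limma called 20 of 27216, so the count of 0 depends on which probe sets are fitted. Nothing in the labels says whether the samples came from separate sowings, so these p-values measure only the spread between these samples.

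**Figure D2:**
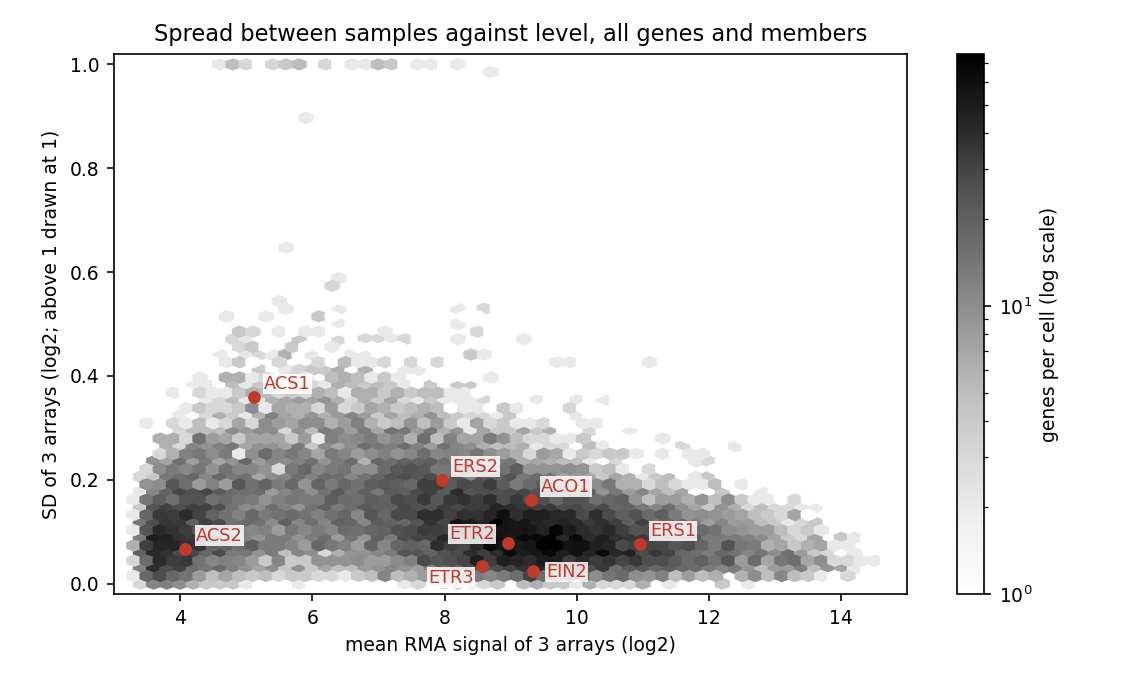
SD of the 3 arrays against mean RMA signal, both on the log2 scale, for 17905 named genes (grey cells, darker with more genes on a log scale, SDs above 1 drawn at 1) and the 8 ethylene genes (red points). EIN2 and ETR3 lie low among genes of like brightness, with SDs above those of 4.80% and 5.53% of their bins. ACS1, near background, lies higher, with an SD above that of 92.3% of its bin.

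Where the samples did differ, the receptors shared a direction, as deposited, that 52.5% of all genes above background also had. All 4 receptors were highest on replicate 3 as deposited (3 when quantile normalized again), by 0.13 for ERS1, 0.30 for ERS2, 0.13 for ETR2 and 0.05 for ETR3 against the mean of the other arrays. Of all genes above background, 23.2% were highest on replicate 1 and 22.6% on replicate 2. Their median shift on replicate 3 was 0.08. Within a gene's bin of mean level, the median shift on replicate 3 was 0.02 for the neighbours of ERS1, 0.15 for those of ERS2, 0.08 for those of ETR2 and 0.11 for those of ETR3. The ETR3 shift was thus below that of its neighbours and the other receptors' shifts were above theirs, higher than those of 78.8% of them for ERS1, 79.7% for ERS2 and 62.1% for ETR2. After the second quantile normalization ETR3 was highest on replicate 1, at 8.60 against 8.57 and 8.53, and the median shift of all genes above background on replicate 3 was 0.02. Ribosomal RNA signal was low on replicate 3, the array on which these gene shifts were upward, and its part in them was not tested.

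Of the 6 genes above background, 4 were highest on replicate 3, 2 on replicate 2 (ACO1 and EIN2) and 0 on replicate 1. When quantile normalized again these counts were 3, 2 and 1. As deposited, their median shifts were -0.05, -0.04 and 0.09 on replicates 1, 2 and 3, against -0.04, -0.04 and 0.08 for all genes above background. ACO1 and ERS2 moved in opposite ways on replicate 2, at 0.28 and -0.29, each within the central 95% of genes above background on that array, -0.39 to 0.36. ACS1, on replicate 1, had a shift of 0.61, against a central 95% of -0.49 to 0.29 for genes above background there. ACS1 was not above background on all arrays, so it is outside the set that gave this band. Within its own bin of mean level, the ACS1 shift was greater than those of 99.4% of genes. Its signal could not be told from background, so the shift gives no order between samples.

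**Figure D3:**
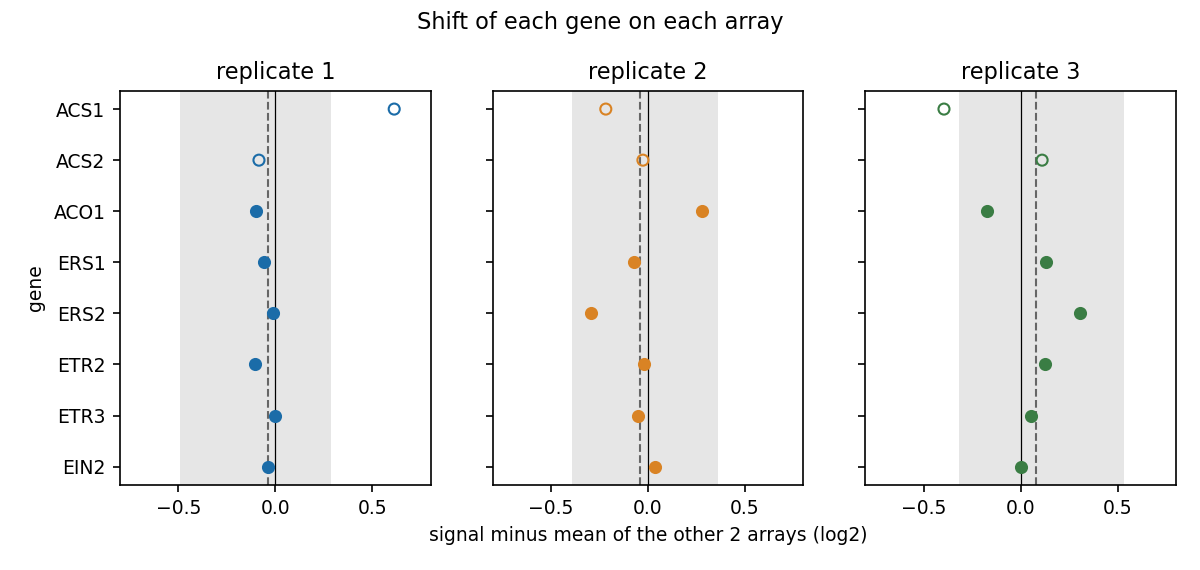
Signal of each of the 8 genes on 1 array minus the mean of the other 2 arrays (x axis, log2), with a panel for each replicate. Filled points are genes above the background ceiling on all arrays and open points the others, the dashed line is the median of all genes above the ceiling, and the grey band holds their central 95%. The 4 receptors lie to the right of 0 on replicate 3, as does the median of all genes (ETR3 lies to the left when quantile normalized again). ACS1 alone lies outside the band, on replicates 1 and 3. It is not among the genes that gave the band, and its values are given no order between samples.

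The rest of the pathway was read from a list of 81 symbols, of which 10 could be used. For 64 there was no match, 2 had no probe set, 2 named a gene already used, 1 matched several genes, and SK1 and SK2 matched records whose identity could not be checked. No other ACC synthase or ACC oxidase, no CTR kinase and no EBF gene could be used, so those steps were not tested. Of the 10 genes, 9 exceeded the background ceiling in every sample and 1 in none, against the same 81.3% of named genes. Their median level was 10.79, a description over unlike probe sets that is not set against other genes.

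The methionine cycle supplies S-adenosylmethionine and recovers the sulfur left over by ACC synthase. Of its genes, 7 of 7 were above background, beside 81.3% of all named genes. These include 2 records that also carry names of heat stress factors, as described below. SAM1 (LOC4337733) and SAM2 (LOC4326996), S-adenosylmethionine synthetases, read 13.46, 13.46 and 13.34, and 12.28, 12.21 and 12.34. A second SAM2 probe set lay below the ceiling, at 3.87, 3.93 and 3.85. IDI2 (LOC4350083), methylthioribose-1-phosphate isomerase, read 8.40, 8.25 and 8.49 from one probe set and 7.51, 7.40 and 7.58 from the other, both lowest on replicate 2.

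The symbol ARD1, an acireductone dioxygenase, led to a record (LOC4348646) that also carries the name of the heat stress factor HSFA2C, and ARD2 to one that carries HSFA2D. ARD1's record read 10.79, 10.42 and 10.60 from one probe set and 4.38, 4.36 and 4.64 from the other, and which of the names each probe set stands for is not settled by the annotation. Without these 2 records, 7 of 8 genes exceeded the ceiling in every sample, and the median level of the list was 11.6.

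The list held 1 more receptor, ETR4 (LOC4342865), of the subfamily with diverged kinase domains. ETR4 read 4.06, 3.85 and 4.05, or 3.99 ± 0.12 (SD, n = 3), below the ceiling on all arrays. So of the receptor genes measured, ERS1, ERS2, ETR2 and ETR3 gave signal above background and ETR4 did not.

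Beyond EIN2, the transcription factor gene EIL1A (LOC107276358), also called MHZ6, which acts downstream of EIN2, read 12.37, 12.26 and 12.22, or 12.28 ± 0.08 (SD, n = 3). Its other probe set lay below the ceiling at 4.82, 4.77 and 4.64. The adjacent record EIL1B (LOC4332697), which shares the synonym EIL1 and was named after its values were seen, read 4.52, 4.43 and 4.54, below the ceiling on every array. Further probe sets are paired with both EIL1A and EIL1B, so values of these close copies are uncertain. EREBP1 (LOC4330935), an ethylene response factor type of transcription factor, read 12.33, 12.19 and 12.25 from one probe set and 4.67, 4.43 and 4.43 from the other.

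**Figure D4:**
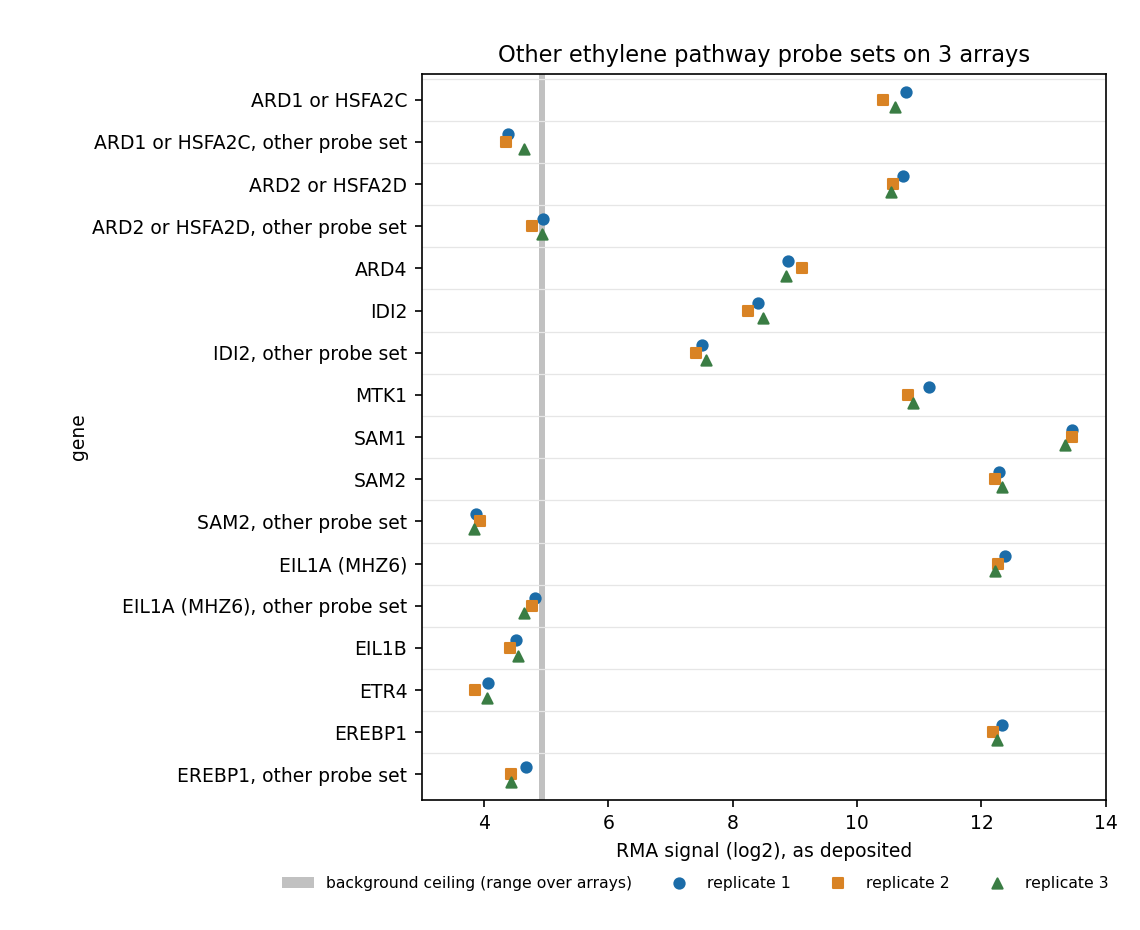
RMA signal on the log2 scale (x axis) of the other ethylene pathway probe sets (y axis) on the 3 arrays, with symbols as in the plot of the 8 genes and the background ceiling as a grey band. The bright probe sets of the methionine cycle genes, EIL1A and EREBP1 lie far to the right of the band, and ETR4, EIL1B and the second probe sets of all these genes but IDI2 lie at or to the left of it.

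Of these 9 genes above background 5 were highest on replicate 1, 2 on replicate 2 and 2 on replicate 3 (SAM2 and IDI2), beside 23.2%, 22.6% and 52.5% of all genes above background, and their SDs were 0.06 to 0.18. Whether their counts differ from those of the receptors was not tested. In 5 of the 6 genes with several probe sets, 1 probe set lay above the ceiling and another below it on all arrays, as for ETR2. The same was true of 40.8% of all 3444 genes with several probe sets.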

How the data were processed

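The deposited values are log2 probe set signals that the authors made with RMA. Per the submitters' processing notes the software was Affymetrix Expression Console, whose version is not given in the sources used. The array's genome build is also not given, so no coordinates are printed. The table has 57381 probe sets. Left out as controls were 123 AFFX and 64 RPTR probe sets, leaving 57194, of which 22436 had 1 gene in the platform annotation. Names came from that annotation and from the symbols and synonyms of assembly ASM3414082v1. Where several probe sets read 1 gene, the brightest on average stood for it.

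The test of spread used R 4.3.3 and limma 3.58.1, in a fit of the single group with trended, robust eBayes on all probe sets, using the prior degrees of freedom of the bulk, and with Benjamini-Hochberg adjustment at 0.05. The script was also run on simulated data drawn from the spread that limma fitted. That run cannot show how the test behaves where real spread departs from the fit. A shift is the log2 value on 1 array less the average of the remaining 2. Arrays have no read depth, and their number limits the precision.

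The genes and lists were chosen with earlier results of these data known. All 8 genes were named. Each other list gave the genes with its 2 greatest means, its least mean and its greatest SD. No gene was named for likeness of pattern, as 3 arrays of 1 group allow little of it. Alternatives were other ceilings, the mean of a gene's probe sets, no _x_at or _s_at probe sets, quantile normalization, and each replicate left out.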

Additional observations from a re-analysis of the deposited data

How the results depend on the processing

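The number of these genes above the background ceiling was 6 with the ceiling at the array median, at the mean plus 3 SD of the Tag controls or at the highest RPTR control (the last chosen after seeing the data), with the mean of all probe sets, without _x_at and _s_at probe sets and when quantile normalized again, and 6 to 7 with 1 replicate left out, where ACS1 was added without replicate 3. The count of 9 other pathway genes was 9 under each of these. No probe set of any of these genes is of the _x_at or _s_at type, so leaving those out could not change either count. Averaging could alter only ETR2 among the chosen genes. When quantile normalized again, 1 of the 6 genes and 1 of the 4 receptors, ETR3, were highest on replicate 1, against 0 before. In that setting 41.0% of genes above background were highest on replicate 3. With ETR4 added, which lay below background, 1 receptor was highest on replicate 1. Both receptor counts were chosen after seeing the data. limma's variance test called 20 of 27216 probe sets above the array median, none of them of these genes (ACS1, ACS2 and the dim ETR2 probe set were not in that fit). Under its other settings limma called 0, those without 1 replicate included. Without 1 replicate each spread rests on the 2 arrays left, so a count of 0 there says little. Of the recomputed counts, 47 stayed equal or within 1.5 times, among them those where values under the ceiling were raised to it. Raising them could not change which array was highest for genes above the ceiling, so part of this tally was fixed beforehand. Of 48 recomputed mean levels, 1 moved by over 1 SD, that of ETR2 with both probe sets averaged (6.37). Most of the others could not have moved that far. Leaving out 1 of 3 arrays always shifts a mean by less than 1 SD, and ETR2 alone had a second probe set to average. No paired analysis was possible because there is a single group. The ACS1 range of 0.67 was 0.12 without replicate 1, and the ACO1 range of 0.30 was 0.05 without replicate 2. ACS1 signal could not be told from background, so its range gives no order between samples.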
